A study of Mus musculus with 16 samples.

Results

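Hepcidin and 9 genes that control it or answer to it were followed across 16 livers of male mice. The members were the 2 mouse hepcidin genes, Hamp and Hamp2, with Bmp6, Hjv, Hfe, Tfr2, Tmprss6, Id1, Smad7 and Slc40a1, that is, 10 genes of the 19096 that had a named probe and of the 13306 that were tested. They were selected on their signals across the 4 groups of these arrays, with earlier results of the same arrays known, so their own levels and changes are given as a description and without p-values. The 10 genes had 12 probes, of which 11 were tested. Tests are given only for other genes of iron biology and for cell type markers. Where a member is named as called, this marks the threshold defined below and is not a test of it.

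Each mouse gave 1 array and each group had 4 mice. All mice, controls included, received diethylnitrosamine (DEN), a carcinogen that acts on the liver, at 90 mg/kg and 5 weeks of age. The groups named DEN + PB then had phenobarbital (PB), a drug that activates the nuclear receptor CAR and promotes liver tumours in mice, at 0.5 g/l in their drinking water from 7 weeks of age. All livers were collected at 57 weeks, from regions without tumour. The mice were wild type (WT, C57BL/6J) or lacked Gadd45b, a stress-induced gene whose role in CAR-driven tumour promotion the study examined (KO). The stock name of the KO mice carries a second inbred strain beside C57BL/6, so genotype and strain background cannot be told apart here. No group without DEN was analysed here. The series asked how PB changed liver expression in WT and in KO mice.

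Hepcidin is the peptide hormone of the liver that lowers iron in blood. It binds ferroportin, the iron exporter encoded by Slc40a1, and causes its breakdown. Hepatocytes raise hepcidin transcription through 2 routes. In the iron route, BMP6 from sinusoidal endothelial cells signals through receptors and SMAD proteins with the help of hemojuvelin (Hjv), Hfe and transferrin receptor 2 (Tfr2), while the protease matriptase-2 (Tmprss6) damps the signal. Id1 and Smad7 are targets of the same signal, and Smad7 feeds back on it. In the inflammatory route, interleukin 6 acts through STAT3. Mice have a second hepcidin gene, Hamp2, whose role in iron control is less clear.

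The promoters of Hamp and Hamp2 are shown because they are near copies that differ within one of the elements through which these routes act. They were read from RefSeq promoters of build GRCm38.p6, where 5 of the 10 genes matched (Hamp, Hamp2, Bmp6, Hfe and Tfr2). Hamp lies on the minus strand at chr7:30943980-30944279 and Hamp2 on the minus strand at chr7:30924132-30924431, with the pseudogene Usf2-ps1 between the genes. Each run is 300 bases, 5′ to 3′, most of them before the transcription start. Capitals mark the core of the BMP response element, or the 6 bases aligned with it, and the STAT site.
Hamp: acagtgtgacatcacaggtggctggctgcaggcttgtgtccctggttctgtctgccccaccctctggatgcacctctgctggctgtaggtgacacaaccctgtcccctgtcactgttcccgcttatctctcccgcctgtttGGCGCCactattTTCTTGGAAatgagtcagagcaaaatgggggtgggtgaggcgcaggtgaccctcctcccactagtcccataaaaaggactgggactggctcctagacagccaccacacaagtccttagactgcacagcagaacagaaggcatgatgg
Hamp2: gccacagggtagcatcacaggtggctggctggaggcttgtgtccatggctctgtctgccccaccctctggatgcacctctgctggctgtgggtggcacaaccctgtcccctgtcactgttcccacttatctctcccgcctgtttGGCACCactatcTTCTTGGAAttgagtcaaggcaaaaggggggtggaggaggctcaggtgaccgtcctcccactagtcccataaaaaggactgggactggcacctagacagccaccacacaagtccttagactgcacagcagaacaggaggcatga

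The 2 promoters aligned with 276 identical bases, 21 mismatches and 6 gap columns, an identity of 91.1%. Both strands were searched for the BMP response element core GGCGCC and for the STAT site TTCNNNGAA, motifs that do not overlap here and read the same on both strands. Counted from the start site as 0, Hamp held GGCGCC from -109 to -104 and TTCTTGGAA from -97 to -89. Hamp2 held TTCTTGGAA from -94 to -86 and no GGCGCC in this window. In the aligned 6 bases Hamp2 differed from Hamp by 1 substitution, G4A, counted from 1 at the first base of the Hamp element. Of 32851 RefSeq promoters of this length, 11.9% held GGCGCC and 8.3% held the STAT site. A match is a run of letters and was not tested for binding.

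The arrays had 1 colour and their number limits the precision. Between 58.3% and 67.7% of spots per array were well above background, and the 75th percentile of signal ran from 136.9 to 294.3. Levels below are log2 processed signal minus that percentile of the same array, so that 1 unit is a doubling of relative signal, and levels of different probes are not set against each other. Gadd45b was above background on 4 of 4 arrays in both WT groups and on 0 of 4 in both KO groups. Cyp2b10, the classic target of CAR, rose with PB by 6.69 ± 0.62 (SE) log2 in WT and by 6.80 ± 0.62 in KO (limma, adjusted p = 1.42e-05 and 1.09e-05). The 6 hepatocyte markers (Alb, Apoa1, Ttr, Ahsg, Apob, Serpinc1) were above background on every array, as a liver label requires. A gene was called where limma gave an adjusted p under 0.05 over all tested probes together with a change of at least 1.5-fold. For the members, chosen from these signals, a call only describes passing that threshold and is not evidence of a change.

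Hamp, the hepcidin gene that acts in iron control, was low in 1 of the 4 groups. In WT DEN its level was 7.60, 7.50, 7.54 and 6.97 on replicates 1 to 4. In WT DEN + PB it was 5.70, 3.77, 5.60 and 5.96. All 4 WT DEN + PB arrays lay below every array of the other 3 groups. In KO DEN the level was 7.61, 7.56, 7.39 and 6.60, and in KO DEN + PB it was 7.14, 7.76, 7.20 and 6.56. The KO groups overlapped each other and overlapped WT DEN. From high to low, the mean was 7.40 ± 0.29 (SD, n = 4) in WT DEN, 7.29 ± 0.47 in KO DEN, 7.17 ± 0.49 in KO DEN + PB and 5.26 ± 1.00 in WT DEN + PB. The first 3 means in this order differed by less than their spread.

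The fitted change of Hamp with PB was -2.15 ± 0.39 (SE) log2 in WT, or 4.42-fold lower, and -0.13 ± 0.39 in KO. Hamp was 3.76-fold higher in KO than in WT under DEN + PB (1.91 ± 0.39) and -0.11 ± 0.39 apart under DEN. The difference between the PB changes, WT minus KO, was -2.02 ± 0.56 and was not called. WT DEN + PB replicate 2 stood apart, and without it the WT change with PB was -1.65 and the KO minus WT difference under DEN + PB was 1.41, both still called. Without WT DEN replicate 1 the WT change was -2.08 and no longer called. The arrays lay on 4 slides, and within a slide, from 1 or 2 arrays a group, the WT change was -3.83, -1.27 and -1.84 on slides 1, 2 and 3. The KO minus WT difference under DEN + PB was 2.79, 1.19, 2.07 and 1.60 on slides 1 to 4.

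Hamp2 had a different order of groups. Its level was 3.05, 2.61, 3.32 and 2.39 in WT DEN and 2.25, 0.76, 2.46 and 3.10 in WT DEN + PB. It was 1.07, 2.06, 3.25 and 0.84 in KO DEN and 3.22, 4.02, 4.50 and 4.25 in KO DEN + PB. The KO DEN + PB arrays were the highest, and the lowest of them (3.22) was just under KO DEN replicate 3 (3.25) and WT DEN replicate 3 (3.32). KO DEN split into 1 array near the WT DEN levels and 3 below them. The means ran from 4.00 ± 0.56 (SD, n = 4) in KO DEN + PB through 2.84 ± 0.42 in WT DEN and 2.14 ± 0.99 in WT DEN + PB to 1.80 ± 1.10 in KO DEN, and the last 3 means were no farther apart than the SD of KO DEN.

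With PB, Hamp2 was 4.57-fold higher in KO (2.19 ± 0.51 log2, called) and -0.70 ± 0.51 in WT. Under DEN + PB it was 3.62-fold higher in KO than in WT (1.86 ± 0.51, called), and under DEN the difference was -1.04 ± 0.51. The PB changes differed between the genotypes by -2.89 ± 0.72, WT minus KO, which was not called. Within slides the KO change with PB was 2.19, 2.95 and 2.45 on slides 1, 3 and 4. The KO minus WT difference under DEN + PB was 3.49, 0.12, 1.77 and 2.04 on slides 1 to 4. With slide as a block neither was called (2.34 ± 0.56 and 1.86 ± 0.54). The KO call was present in 8 of 16 fits that left out 1 array, over values from 1.87 to 2.67, and the call between genotypes in 10 of 16, over values from 1.39 to 2.17.

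The 2 hepcidin genes had their extremes in different groups. Both were higher in KO than in WT under DEN + PB, but WT DEN + PB was the group apart for Hamp, and KO DEN + PB had the highest mean for Hamp2. The transcripts are near copies, and whether each probe reads only its own gene was not tested. The PB change in KO was -0.13 on the Hamp probe and 2.19 on the Hamp2 probe.

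**Figure D1:**
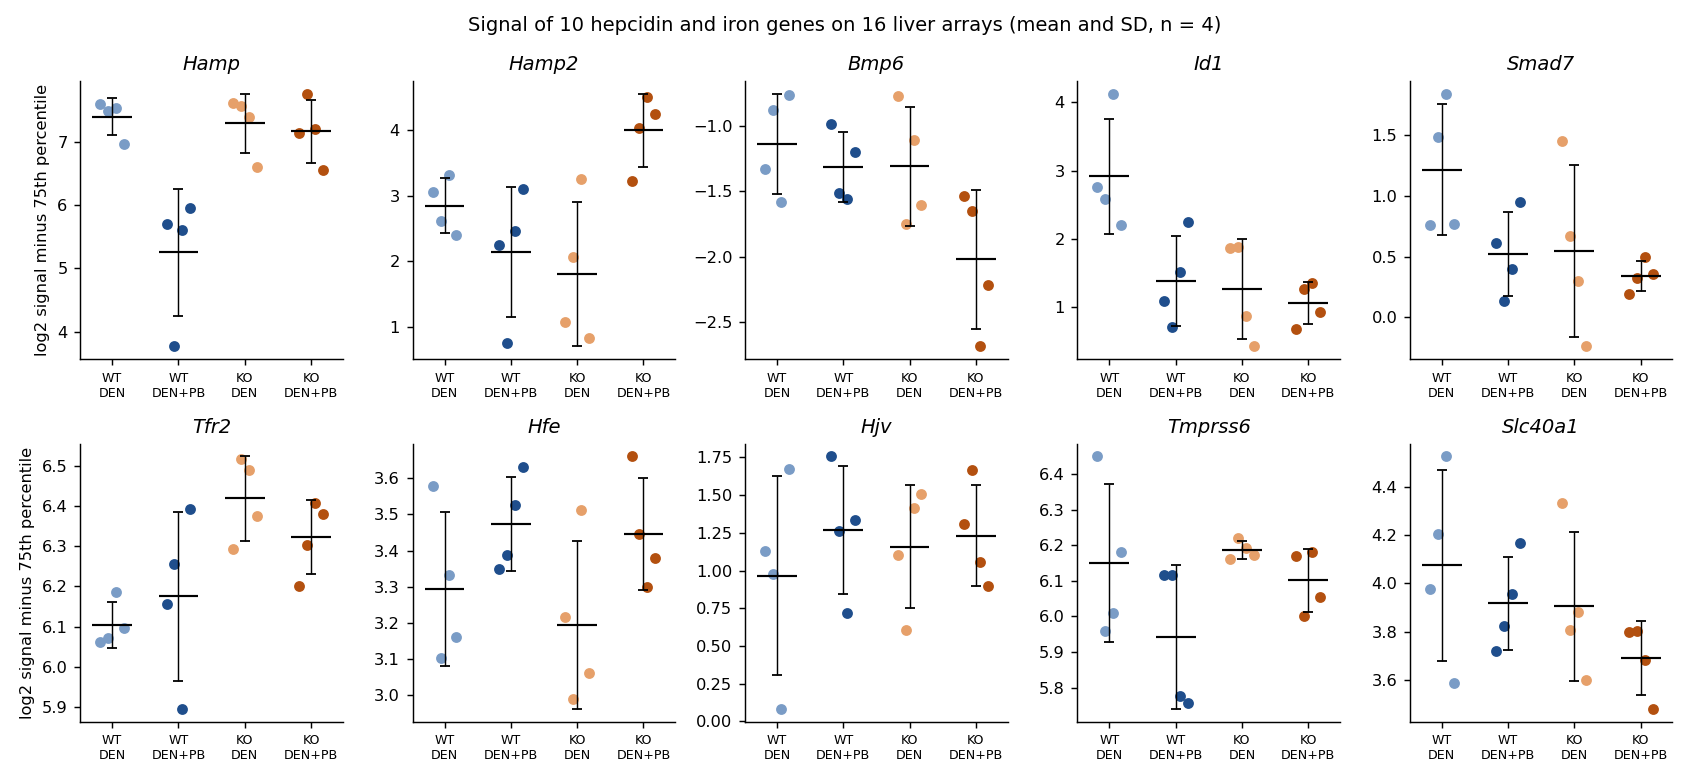
Level of each of the 10 genes on each array, as log2 signal minus the array's 75th percentile (vertical axis, own scale for each gene), in the 4 groups. Points are arrays in order of replicate, the horizontal line is the mean and the bar its SD (n = 4). The 4 WT DEN + PB arrays of Hamp sit between 3.77 and 5.96, below all other arrays.

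Of the signals that raise hepcidin, Bmp6 was dim. On its detected probe it was -1.33, -0.88, -1.58 and -0.77 in WT DEN and -0.99, -1.51, -1.56 and -1.20 in WT DEN + PB. In KO DEN it was -0.77, -1.76, -1.11 and -1.61, and in KO DEN + PB -1.53, -1.65, -2.69 and -2.22. The lowest 2 of the 16 arrays were in KO DEN + PB, and that group overlapped each of the others. The fitted change with PB was -0.71 ± 0.28 in KO and -0.18 ± 0.28 in WT, and KO minus WT was -0.71 ± 0.28 under DEN + PB and -0.17 ± 0.28 under DEN. None was called. A second Bmp6 probe was above background on 2 of 4 arrays under DEN and 3 of 4 under DEN + PB in WT and on 0 of 8 in KO, and was not tested.

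BMP6 is made by sinusoidal endothelial cells, and 2 of their 8 markers were called lower in KO under DEN (Clec4g and Pecam1) and 4 of 8 under DEN + PB (these with Fcgr2b and Oit3). Under DEN the markers Kdr and Stab1 differed by 0.04 ± 0.19 and -0.01 ± 0.15 (SE), KO minus WT. The signal of the 8 markers, summed and divided by the 75th percentile, was 51.2 to 64.3 under DEN and 47.7 to 60.5 under DEN + PB in WT, and 26.8 to 44.7 and 26.3 to 30.5 in KO. All of them were above background on every array. The part of these markers in the Bmp6 values was not tested, and in bulk liver fewer cells of a type cannot be told apart from less RNA per cell.

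Transcripts of the membrane proteins through which hepatocytes sense BMP6 and transferrin were called in no comparison. Tfr2, which encodes a sensor of transferrin iron, was 6.06 to 6.19 under DEN and 5.89 to 6.39 under DEN + PB in WT, and 6.29 to 6.52 and 6.20 to 6.41 in KO. Its KO DEN arrays were all above its WT DEN arrays, with a difference of 0.32 ± 0.13, under the 1.5-fold limit. Hfe, which partners Tfr2, had means from 3.19 in KO DEN to 3.47 in WT DEN + PB, and Hjv, a BMP co-receptor, from 0.96 in WT DEN to 1.27 in WT DEN + PB. Tmprss6, the protease that cleaves hemojuvelin, had means from 5.94 in WT DEN + PB to 6.19 in KO DEN. For Hfe, Hjv and Tmprss6 the groups overlapped in each of the 4 comparisons, and the fitted differences ran from -0.21 to 0.30 log2.

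Id1, a transcription regulator and a direct target of BMP and SMAD signals, was highest in WT DEN. Its brightest probe read 2.75, 2.57, 4.13 and 2.20 in WT DEN and 1.08, 0.70, 1.503 and 2.25 in WT DEN + PB. It read 1.86, 1.88, 0.86 and 0.42 in KO DEN and 0.68, 1.26, 1.34 and 0.92 in KO DEN + PB. WT DEN + PB replicate 4 (2.25) reached into the WT DEN range, and all 8 KO arrays were below the WT DEN arrays. In WT the mean was 2.91 ± 0.84 (SD, n = 4) under DEN and 1.38 ± 0.66 under DEN + PB, and in KO it was 1.25 ± 0.74 and 1.05 ± 0.31. The last 3 means were closer than the SDs of WT DEN + PB and KO DEN. The second Id1 probe followed the first over the 16 arrays (r = 0.999, largest difference 0.24).

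Id1 was 3.16-fold lower in KO than in WT under DEN (-1.66 ± 0.42, called), while the difference under DEN + PB was -0.33 ± 0.42. Its change with PB was -1.53 ± 0.42 in WT, not called, and -0.20 ± 0.42 in KO. These PB changes differed by -1.33 ± 0.59, WT minus KO, which was not called. Both slides that held the 2 DEN groups gave a lower level in KO, by -0.87 on slide 1 and -2.27 on slide 3. With slide as a block the KO minus WT difference under DEN was -1.62 ± 0.48 and was not called. The call was lost in 9 of 16 fits that left out 1 array, among them each of WT DEN replicates 1, 2 and 3 and KO DEN replicates 2, 3 and 4, over values from -1.87 to -1.26. The smallest was without WT DEN replicate 3, the highest array.

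Smad7, the inhibitory SMAD, ran in the same direction with smaller differences. It was 0.76, 1.49, 1.84 and 0.77 in WT DEN and 0.61, 0.13, 0.40 and 0.95 in WT DEN + PB. It was 1.45, 0.67, 0.30 and -0.24 in KO DEN and 0.19, 0.32, 0.49 and 0.35 in KO DEN + PB. WT DEN overlapped WT DEN + PB and KO DEN, and KO DEN + PB lay below all WT DEN arrays. The fitted change with PB was -0.69 ± 0.31 in WT and -0.20 ± 0.31 in KO, and KO minus WT was -0.67 ± 0.31 under DEN and -0.18 ± 0.31 under DEN + PB. None was called.

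Slc40a1, the iron exporter on which hepcidin acts, was 3.59 to 4.53 under DEN and 3.72 to 4.17 under DEN + PB in WT, and 3.60 to 4.33 and 3.48 to 3.80 in KO. All groups overlapped, and the fitted differences ran from -0.23 to -0.16 with an SE of 0.20. Ferroportin is controlled by hepcidin as a protein, which these arrays did not measure.

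**Figure D2:**
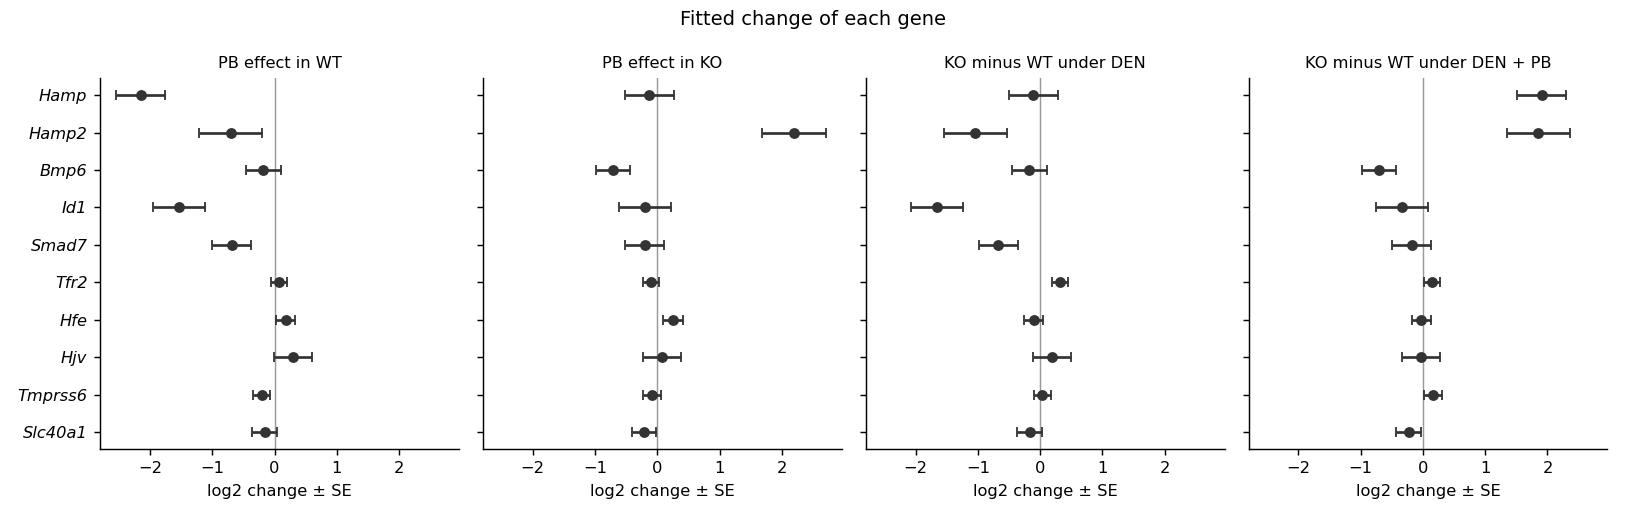
Fitted log2 change (horizontal axis, with its SE) of each gene in the 4 comparisons of groups. Hamp lies at -2.15 for PB in WT and near 0 for PB in KO, Hamp2 at 2.19 for PB in KO, and Id1 at -1.66 for KO minus WT under DEN.

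In counts, 1 of the 10 genes was called for PB in WT (Hamp), where 0.737% of all 13306 tested genes were called. For PB in KO 1 was called (Hamp2) against a background of 2.13%, and for the difference between the PB changes 0 of 10 against 0%, by limma, while 881 of the 13306 genes had an unadjusted p under 0.05 there. For KO minus WT, 1 was called under DEN (Id1) against 2.76%, and 2 under DEN + PB (Hamp and Hamp2) against 7.61%. Groups of 4 arrays did not overlap for 1 gene with PB in WT (Hamp, background 5.16%), 0 with PB in KO (8.6%), 2 for KO minus WT under DEN (Id1 and Tfr2, background 11%) and 2 under DEN + PB (Hamp and Hamp2, background 17.3%). The median change over the 10 genes was -0.19 for PB in WT and -0.11 for PB in KO, beside -0.02 and 0.01 over all genes, and -0.14 and -0.03 for KO minus WT under DEN and DEN + PB, beside -0.04 and 0.03. Since the genes were chosen from these contrasts, nothing is read from these values. Comparisons that use the same group share its arrays.

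Across the 16 arrays, Id1 and Smad7 ran closer together than Hamp did with Id1 or with Hamp2. Hamp correlated with Id1 at r = 0.39 (rho = 0.41) and with Hamp2 at r = 0.42 (rho = 0.25), while Id1 and Smad7 correlated at r = 0.88. Without the 2 arrays of most extreme Hamp, Hamp and Hamp2 gave r = 0.10. After each group's mean was taken off, Hamp with Id1 and with Hamp2 gave 0.61 each, and Id1 with Smad7 gave 0.81. Slc40a1 correlated with Smad7 at r = 0.82 (rho = 0.59) and with Id1 at r = 0.73 (rho = 0.6). Without the 2 arrays of most extreme Smad7 or Id1, these r were 0.67 and 0.56. Slc40a1, Smad7 and Id1 were all highest on WT DEN replicate 3. WT DEN and KO DEN overlapped in Hamp and not in Id1, and WT DEN + PB and the KO groups overlapped in Id1 and not in Hamp. These r describe 16 arrays that share 1 scaling per array, and no p is given.

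Of 12161 genes above background on all arrays, those whose pattern was most like that of Hamp included Car14 (r = 0.856), a carbonic anhydrase, Ces1e (r = 0.849), a carboxylesterase, 2310001H17Rik (r = 0.828) and Hal (r = 0.805), histidine ammonia-lyase. Without the 2 arrays farthest from the median of Hamp, these r were 0.71, 0.77, 0.79 and 0.70. Each of these 4 had its lowest mean in WT DEN + PB, which their choice by likeness to Hamp favours. After each group's mean was taken off, their r with Hamp were 0.60, 0.56, 0.53 and 0.77. Tfrc, transferrin receptor 1, had the second lowest r of all 12161 genes (-0.82, and -0.82 without the same 2 arrays). Its r with Hamp was -0.46 once each group's mean was taken off. Tfrc was picked out after its value was seen.

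**Figure D3:**
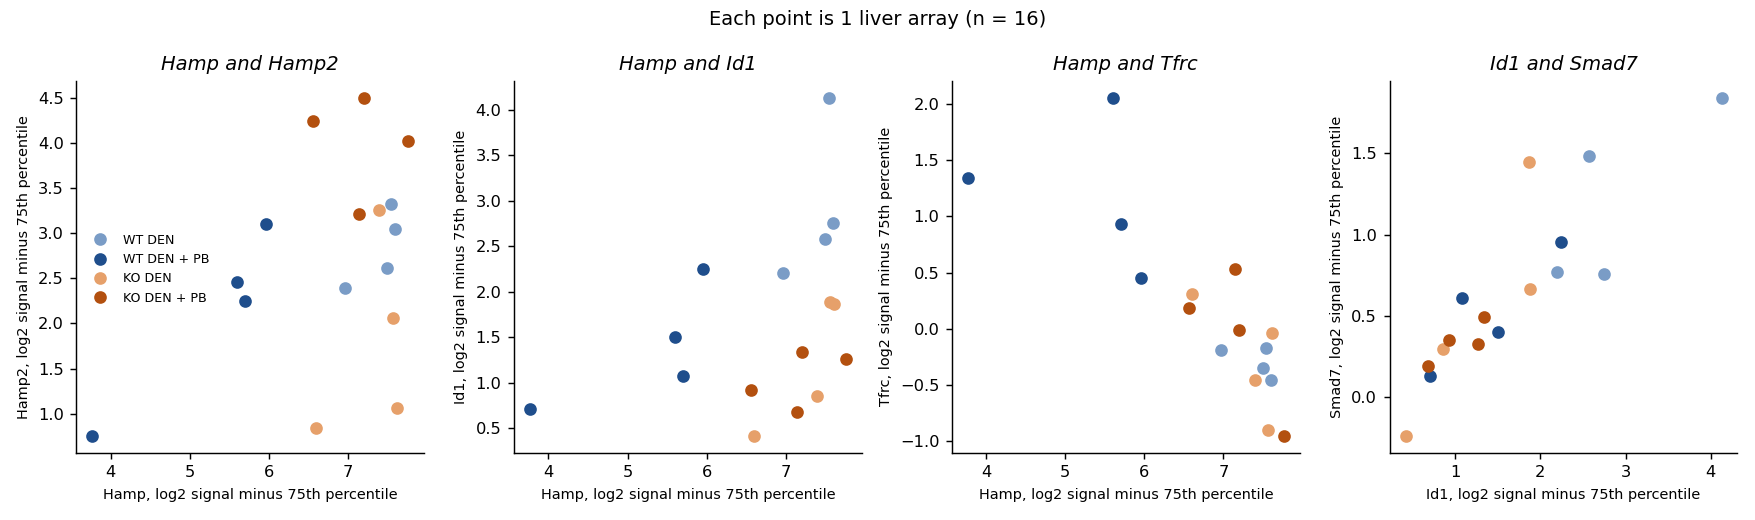
Levels of gene pairs on the 16 arrays, as log2 signal minus the array's 75th percentile on both axes, coloured by group. The 4 WT DEN + PB arrays have the lowest Hamp in the first 3 panels and the 3 highest Tfrc levels are theirs. In the last panel Id1 and Smad7 rise together over the 16 arrays, and both are highest on WT DEN replicate 3.

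Other genes of iron biology came in 3 lists with 67 genes, 63 of them tested (Smad9, Nog, Erfe and Cybrd1 were not). The list of BMP and SMAD genes and their relatives had 25 genes, 22 of them tested. Gdf15 rose with PB in both genotypes and was its only gene called with PB. Whether this rise bears on BMP and SMAD signalling was not tested. Gdf15, a stress cytokine of the TGF-beta family, was 2.29, 1.40, 1.27 and 1.30 in WT DEN and 2.87, 3.25, 3.03 and 2.77 in WT DEN + PB. It was 1.06, 1.26, 0.96 and 1.47 in KO DEN and 2.82, 2.50, 1.98 and 2.08 in KO DEN + PB. No DEN + PB array overlapped the DEN arrays of its genotype. The rise was 1.42 ± 0.24 log2 in WT (limma, adjusted p = 0.0052) and 1.16 ± 0.24 in KO (adjusted p = 0.0168). The KO call was lost without KO DEN replicate 1 or KO DEN + PB replicate 2.

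In this list Bmp5, a BMP ligand, was the other gene called. It was lower in KO than in WT by -0.61 ± 0.15 under DEN (limma, adjusted p = 0.0423) and by -0.71 ± 0.15 under DEN + PB (adjusted p = 0.0101), and the DEN call was lost in 11 of 16 fits without 1 array and with slide as a block (-0.41, adjusted p = 0.203). Its second tested probe was not called (-0.47 ± 0.21 and -0.67 ± 0.21, adjusted p = 0.216 and 0.0612). The median change over the 22 genes was -0.09 for PB in WT and -0.10 for PB in KO, beside -0.02 and 0.01 over all genes, and -0.19 and -0.16 for KO minus WT under DEN and DEN + PB, beside -0.04 and 0.03. Atoh8, another BMP target, had the smallest p for the difference between PB changes (-1.12 ± 0.40, adjusted p = 0.6) and did not pass.

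The inflammatory arm of hepcidin control had 15 genes, all tested, and 1 was called. Stat3, the transcription factor of that arm, was 3.67, 3.10, 3.36 and 3.25 in WT DEN and 3.45, 3.44, 2.53 and 3.22 in WT DEN + PB. It was 3.72, 5.31, 4.20 and 4.70 in KO DEN and 3.91, 4.21, 4.30 and 4.23 in KO DEN + PB. Every KO array was above every WT array. The difference was 1.14 ± 0.28 under DEN and 1.00 ± 0.28 under DEN + PB (limma, adjusted p = 0.0402 and 0.0425), and each call was lost in 9 of 16 fits without 1 array. With slide as a block the DEN difference was 1.14 and not called (limma, adjusted p = 0.0778). Stat3 did not change with PB past the threshold in either genotype.

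No other gene of this arm passed. With PB the smallest p values belonged to Fgb, a fibrinogen chain, in WT (-0.27 ± 0.18, limma adjusted p = 0.867) and Il1b, interleukin 1 beta, in KO (-1.34 ± 0.36, adjusted p = 0.0777), which also had the smallest for the difference between PB changes (1.15 ± 0.51, adjusted p = 0.796). The acute-phase genes Saa1, Saa2 and Crp and the cytokine gene Il6 were not called in any comparison. The median change over the list was -0.05 for PB in WT, -0.09 for PB in KO and 0.14 and 0.30 for KO minus WT under DEN and DEN + PB.

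Iron handling had 27 genes, 26 of them tested, with the ferritin chains, transferrin, transporters, haem genes and iron-responsive regulators. With PB in WT 1 was called, Slc48a1, a haem transporter (0.88 ± 0.16, limma adjusted p = 0.0116). Its change in KO was 0.46 ± 0.16 (limma, adjusted p = 0.202), and the difference between PB changes was 0.42 ± 0.23 (adjusted p = 0.892). A second probe of Slc48a1 changed by 0.98 ± 0.23 in WT and 0.76 ± 0.23 in KO, not called (adjusted p = 0.0791 and 0.13). The call of the first probe was lost without WT DEN + PB replicate 2. With PB in KO none passed, and Scara5, a ferritin receptor, had the smallest p (-1.29 ± 0.43, adjusted p = 0.172). For the difference between PB changes this was Slc11a2, the transporter DMT1 (0.80 ± 0.28, adjusted p = 0.573), whose other tested probes gave -0.27 and -0.67.

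Between genotypes, 2 iron handling genes were called under DEN and 3 under DEN + PB. Under DEN, Scara5 was higher in KO (1.79 ± 0.43, limma adjusted p = 0.0343) and Hmox1, haem oxygenase 1, was lower (-0.92 ± 0.20, adjusted p = 0.0219). Under DEN + PB, Heph, a ferroxidase, was lower in KO (-1.33 ± 0.31, adjusted p = 0.0149), as were Tfrc (-1.26 ± 0.34, adjusted p = 0.0357) and Flvcr1, a haem exporter (-0.82 ± 0.24, adjusted p = 0.0459). In the other treatment these genes were not called. There Scara5 differed by 1.44 ± 0.43 (limma, adjusted p = 0.0534) and Hmox1 by -0.57 ± 0.20 (adjusted p = 0.103) under DEN + PB. Heph differed by -0.68 ± 0.31, Flvcr1 by -0.50 ± 0.24 and Tfrc by 0.02 ± 0.34 under DEN. Leaving out 1 array ended the Scara5 call for WT DEN replicates 1, 2 and 4 and KO DEN replicates 2 and 4, and the Hmox1 call for WT DEN replicates 1 and 3 and KO DEN replicates 1 and 2. It ended the Heph call for WT DEN + PB replicate 4 and KO DEN + PB replicate 2, the Tfrc call for WT DEN + PB replicates 2 and 3 and KO DEN + PB replicates 2, 3 and 4, and the Flvcr1 call for 11 of 16 arrays. With slide as a block Scara5 (1.53, limma adjusted p = 0.115) and Flvcr1 (-0.82, adjusted p = 0.0815) were not called. All 12 calls in the 3 lists were lost with normexp background correction, under which 12 to 40 genes of all were called in these comparisons. There Scara5 was 0.70 apart, Heph -0.67, Flvcr1 -0.55, Hmox1 -0.68 and Tfrc -0.89, and Bmp5 was -0.52 under DEN and -0.41 under DEN + PB. With normexp without spots of outlying background, Bmp5 was -0.27 and -0.17, Heph -0.43 and Flvcr1 -0.53, none of them called, and the other calls were present. The ferritin genes Fth1 and Ftl1, transferrin (Trf) and the regulators Aco1 and Ireb2 were not called in any comparison. The median over the 26 genes was 0.00 for PB in WT and 0.08 for PB in KO, and 0.02 and -0.0036 for KO minus WT under DEN and DEN + PB.

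Tfrc, the receptor by which cells take up transferrin iron, was -0.46, -0.35, -0.17 and -0.19 in WT DEN and 0.93, 1.34, 2.05 and 0.45 in WT DEN + PB. In KO DEN it was -0.04, -0.90, -0.46 and 0.31, and in KO DEN + PB 0.53, -0.95, -0.01 and 0.18. WT DEN + PB lay above WT DEN on all 4 arrays, and 1 KO DEN + PB array reached into its range. The PB change in WT, 1.49 ± 0.34, did not pass (limma, adjusted p = 0.0679), and in KO it was 0.21 ± 0.34 (adjusted p = 0.917). The difference between these PB changes, WT minus KO, was 1.28 ± 0.49 and did not pass either (limma, adjusted p = 0.67).

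**Figure D4:**
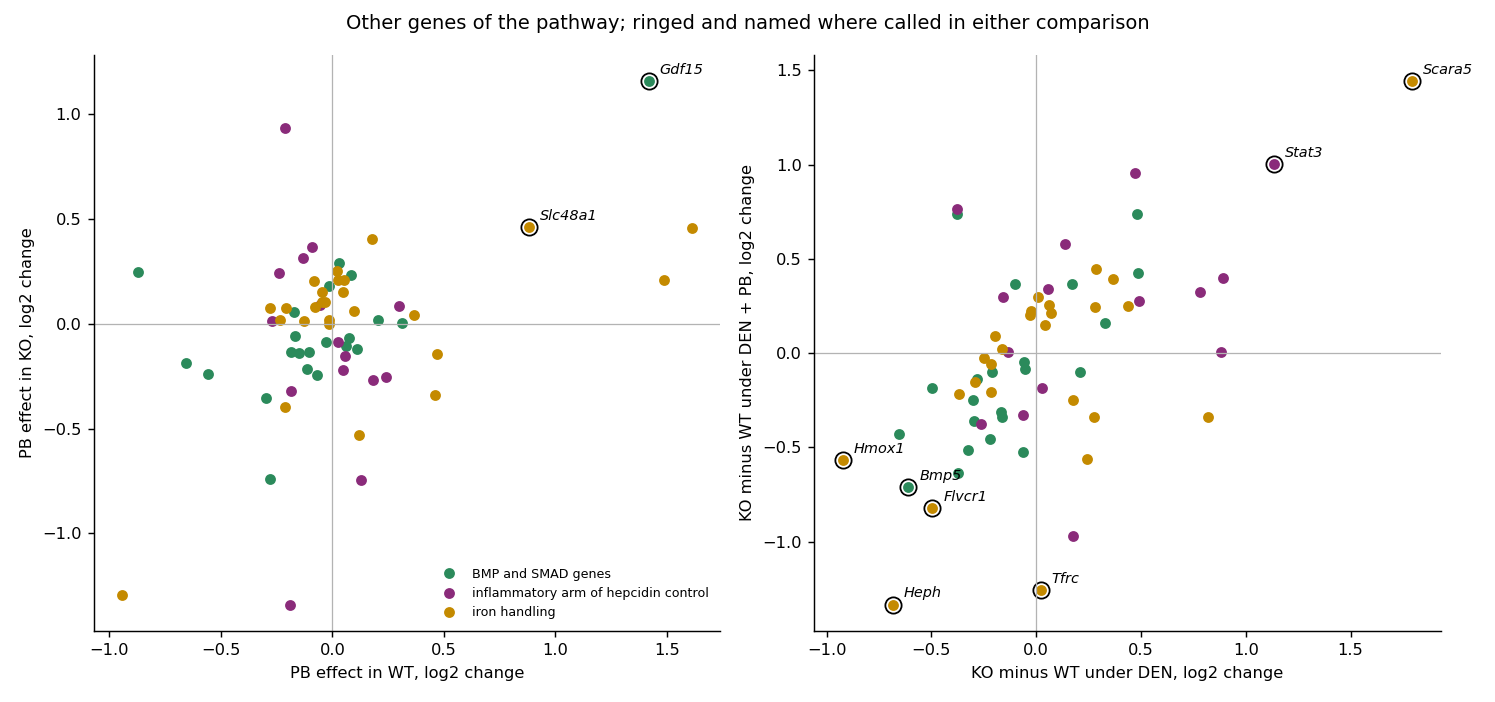
Fitted log2 change of the 63 tested genes of the 3 lists, with the PB effect in WT against that in KO (left) and KO minus WT under DEN against the same under DEN + PB (right). Ringed genes were called in at least 1 of the 2 comparisons of their panel, with Gdf15 above 1 on both axes of the left panel.

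Markers of liver cell types other than hepatocytes moved with genotype. Under DEN + PB, 5 of 6 Kupffer cell markers, 4 of 8 markers of sinusoidal endothelium and 3 of 5 stellate cell markers were called lower in KO, and under DEN 3, 2 and 0. Marco, the Kupffer cell marker called in neither, had means of 3.05 in KO and 2.83 in WT under DEN + PB. Under DEN its means were 3.34 in KO and 3.99 in WT. Vsig4, a receptor of Kupffer cells, was lower by -1.71 ± 0.30 under DEN and -2.33 ± 0.30 under DEN + PB (limma, adjusted p = 0.00714 and 0.000309), and Adgre1, which encodes F4/80, by -1.94 ± 0.33 and -1.95 ± 0.33 (adjusted p = 0.00542 and 0.002). Clec4g, of the sinusoidal endothelium, was lower by -0.96 ± 0.20 and -1.24 ± 0.20 (adjusted p = 0.0185 and 0.00166). No marker of any of the 5 lists was called with PB in either genotype. With PB in KO, 7 of 8 endothelial, 6 of 6 Kupffer and 5 of 5 stellate markers were lower, without a call. Their median changes were -0.38, -0.46 and -0.16, and 4, 2 and 1 had an unadjusted limma p under 0.05. In WT 5, 5 and 3 were lower with PB, with medians of -0.09, -0.10 and -0.0003. No hepatocyte marker and none of the 4 tested of 6 erythroid markers was called in any comparison.

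The summed Kupffer cell signal over the 75th percentile was 52.8 to 216.9 under DEN and 68.2 to 79.6 under DEN + PB in WT, and 36.0 to 51.4 and 26.6 to 58.4 in KO. WT DEN replicate 3 held the highest value, and Id1, Smad7 and Slc40a1 were also highest on that array. Without it the WT change with PB was -1.13 for Id1, -0.48 for Smad7 and -0.0067 for Slc40a1. Stellate markers summed to 77.8 to 100.6, 80.4 to 101.9, 57.0 to 77.6 and 54.5 to 66.3 in the same order, and hepatocyte markers to 1265 to 1790, 1156 to 1488, 1428 to 1683 and 1432 to 1892. All Kupffer, endothelial and stellate markers were above background on every array. Their part in the KO minus WT values of Id1, Bmp5, Hmox1, Heph and Tfrc was not tested. For Hamp the low group was WT DEN + PB. In WT all 6 hepatocyte markers were lower with PB, with a median change of -0.26, and 0 were called by limma while 3 had an unadjusted p under 0.05. Ttr (-0.52 ± 0.15, limma adjusted p = 0.218) and Apob (-0.32 ± 0.14, adjusted p = 0.642) did not overlap between WT DEN and WT DEN + PB. The part of the hepatocyte markers in the Hamp values was not tested. The summed Kupffer, endothelial and stellate signals of the same groups overlapped.

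**Figure D5:**
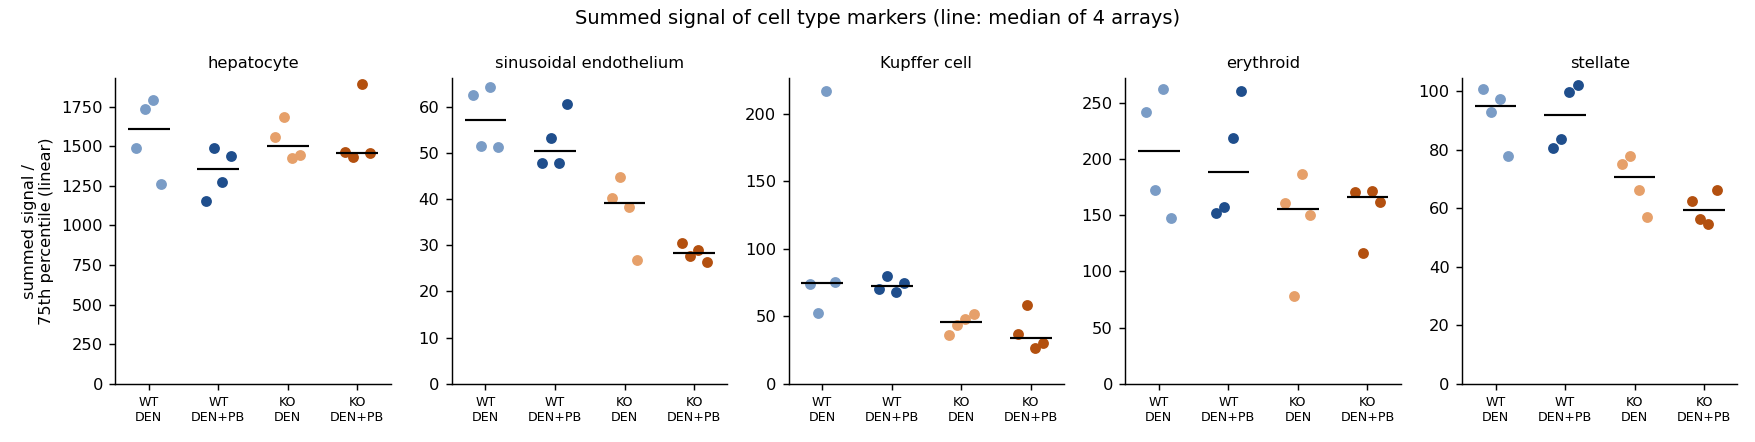
Summed signal of the markers of 5 cell types on each array, divided by the array's 75th percentile (vertical axis, linear, from 0), in the 4 groups, with the median as a line. Endothelial sums are at most 44.7 on the 8 KO arrays and at least 47.7 on the 8 WT arrays.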

How the data were processed

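RNA from 16 livers, 1 per mouse, was labelled with Cy3 and read on 1-colour Agilent arrays of the mouse genome with Feature Extraction. The deposited intensity is its processed signal, background subtracted and detrended by that software for the authors, with no scaling between arrays. A table the authors deposited for the series held the same values averaged over spots, to within 0.0005 percent. Here spots marked as outliers were dropped (71 to 122 per array, leaving 98 probe values missing), spots of a probe were averaged, and log2 signal minus the array's 75th percentile was used. Of 41174 probes, 28223 received a symbol through a RefSeq table of GRCm38.p6. The array was designed on mm9, so no gene coordinates are given beside the promoters. A probe was tested where every array of some group had it above background (24457 probes). Linear models with 4 group means were fitted in limma 3.58.1 (R 4.3.3) over 16 arrays, with Benjamini-Hochberg adjustment over all tested probes, and were tested on simulated data. A gene is given by its brightest tested probe.

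The members, gene lists and markers were chosen with earlier results of these data known. Named besides the members were called genes of the 3 lists (at most 4 a direction), the gene of smallest p where a list had no call, the 5 genes most like Hamp (1 of them is not reported here), and Gadd45b and Cyp2b10. Alternatives were quantile normalization, the series table without scaling, normexp background correction (offset 50), no filter, slide or replicate number as a block, no moderation, as in the analysis of variance of the study's methods, only the 8 arrays compared, the mean of a gene's probes, and each array left out. Normexp used the median spot and background signals, since no mean signal was in the files used here. A normexp fit without spots of outlying background was added after the data were seen. Promoters were aligned with Biopython 1.88.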

Additional observations from a re-analysis of the deposited data

Results flagged for a closer look

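In 92 groups of 4 arrays (23 genes), 5 held 1 array far from the other 3, by the gap to its neighbour over the range of the group (Dixon's ratio). Chance gives about 1 in 20. Hamp was flagged in WT DEN, where replicate 4 was the low array (6.97 against 7.50 to 7.60, ratio 0.837), and in WT DEN + PB, where replicate 2 was the low array (3.77 against 5.60 to 5.96, ratio 0.838). Gdf15 was flagged in WT DEN, with replicate 1 the high array (2.29 against 1.27 to 1.40, ratio 0.874). Hmox1 in WT DEN + PB had replicate 4 as the low array (1.68 against 1.97 to 2.02, ratio 0.858), and Slc11a2 in the same group had the same replicate as the low array (0.41 against 0.94 to 1.03, ratio 0.846).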

How the results depend on the processing

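For KO minus WT under DEN, Hamp turned from -0.11 to 0.13 with normexp, within its spread. Hamp stayed within 1 SD of its main value and kept its direction in WT with PB under all 10 alternatives (-2.19 to -2.04) and without any 1 of 16 arrays (-2.38 to -1.65). Its call was lost with the unscaled table of the series, with normexp and without moderation. For KO minus WT under DEN + PB it ran from 1.57 to 2.12, called in 9 of 10, and from 1.41 to 2.14 without 1 array. Hamp2 with PB in KO was called in 4 of 10 alternatives, and under DEN + PB between genotypes in 5 of 10. Id1 under DEN was called in 3 of 10. Calls of members kept or lost here describe the threshold and are not evidence for a change. Of 1161 values of the other members, 1137 moved by less than 1 SD, 24 by more (12 with the unscaled table), and 0 called changes turned sign.

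With the settings of the report, 98 genes were called for PB in WT, 283 for PB in KO, 0 for the difference between PB changes, and 367 and 1012 for KO minus WT without and with PB, of which 2, 1, 0, 4 and 5 were in the 3 lists. With the unscaled table they were 61 (PB in WT), 147 (PB in KO), 1 (difference between PB changes), 54 and 1085 (KO minus WT under DEN and DEN + PB), and the list genes 1 for PB in WT and 1 for KO minus WT under DEN. In that table the median of all genes was -0.29 for PB in KO, -0.31 for KO minus WT under DEN + PB and 0.35 for the difference. Of its calls 36.7% were higher for PB in KO beside 59% with scaling, 50% beside 37.1% under DEN and 2.86% beside 23.1% under DEN + PB. With normexp the counts were 12, 40, 12 and 36 for PB in WT, PB in KO and KO minus WT under DEN and DEN + PB, with 0 list genes in each (92.5% higher beside 59% for PB in KO, 33.3% beside 23.1% under DEN + PB), and the median for the difference was -0.11. With normexp without outlying backgrounds they were 1 for the difference, 242 and 429 for KO minus WT, and 2 list genes under DEN + PB (34.7% higher beside 23.1%). No filter gave 160 (PB in KO), 142 and 647 (KO minus WT), with 0 and 2 list genes. For KO minus WT under DEN, slide as a block gave 140 and 1 list gene, no moderation 200 and 2, and the 8 arrays alone 201 and 1. No moderation left 2 list genes under DEN + PB. The 8 arrays alone gave 1 list gene for PB in WT and 2 for PB in KO. The mean of the probes gave 1 gene for the difference. The cause of these shifts was not tested. Without 1 array, all genes ran from 70 to 104 (PB in WT), 179 to 322 (PB in KO), 0 to 4 (difference), 164 to 408 and 660 to 1135 (KO minus WT), and list genes from 1 to 3, 0 to 2, 0 to 0, 0 to 4 and 1 to 7. Counts of all genes fell by over 1.5 times for PB in KO without KO DEN replicate 1 (179), KO DEN replicate 4 (184) or KO DEN + PB replicate 2 (186), under DEN without WT DEN replicate 1 (215) or 3 (164) or KO DEN replicate 2 or 4 (177 each), and under DEN + PB without WT DEN + PB replicate 4 (660) or KO DEN + PB replicate 2 (662).

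Replicate numbers did not pair the arrays: deviations of 24 same-numbered pairs correlated at -0.21 to 0.36, 6 over 0.1. With the replicate number as a block, 101, 264, 0, 411 and 995 genes were called in the 5 comparisons, with 2, 1, 0, 4 and 4 list genes, and Hamp kept -2.15 in WT. With that block the calls of Stat3 under DEN + PB (limma, adjusted p = 0.0506) and Id1 under DEN (-1.66 ± 0.44) were lost. Dim probes near background, as those of Bmp6, Bmp5, Heph, Scara5 and Pecam1, limit what a difference can show. Group means went down to -2.56 for Bmp5, -3.15 for Heph, -3.22 for Scara5 and -3.60 for Pecam1.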
